A study of Rattus norvegicus with 18 samples.

Results

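Expression of 8 inflammatory genes, the cytokines Il6 (ENSRNOG00000010278) and Il1b (ENSRNOG00000004649), the chemokines Ccl2 (ENSRNOG00000007159) and Cxcl1 (ENSRNOG00000002802), the prostaglandin synthase Ptgs2 (ENSRNOG00000002525), the adhesion molecules Icam1 (ENSRNOG00000020679) and Vcam1 (ENSRNOG00000014333), and the lipocalin Lcn2 (ENSRNOG00000013973), was described in the bladder after spinal cord injury (SCI) in rats, with and without inosine. They were taken as the rows with these Ensembl identifiers, 8 of the 32754 genes counted, and all 8 are described whatever their values. The list was chosen with earlier results of these data known. Of the 8, 7 passed the filter of more than 1 CPM, the count scaled to the library's total, in at least 3 of the 18 libraries and so were among the 15740 genes tested. Il6 did not pass.

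Bulk RNA-Seq libraries came from detrusor (bladder smooth muscle) and mucosa (the urothelium with its lamina propria) of wild-type (WT) male Sprague Dawley rats. SCI was a complete transection at the thoracic level in rats aged 6 to 7 weeks, which were then given 225 mg/kg/day of the purine nucleoside inosine by intraperitoneal injection for 8 weeks (SCI-inosine) or sodium bicarbonate vehicle for the same time (SCI-vehicle). Control rats were uninjured and untreated, so SCI-vehicle differed from Control by the injury and the injections together. Each tissue had 3 libraries in each of the 3 groups, all labelled as batch 1. The study describes the Control rats as matched in age to the injured rats and the libraries of a group as biological replicates. The labels do not say which detrusor and mucosa came from the same rat.

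Background on these genes helps to read their values. Injured or stretched tissue and resident immune cells release interleukins and chemokines, and NF-kB and related transcription factors switch on many of the genes described here. Chemokines such as Ccl2 and Cxcl1 draw monocytes and neutrophils, Icam1 and Vcam1 let leukocytes adhere to endothelium before they leave the vessel, and Ptgs2 makes the prostaglandins that in bladder act on sensory nerves and smooth muscle. Lcn2 is a secreted iron-siderophore binding protein that urothelium and neutrophils make in response to bacteria.

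The promoters of these genes are shown first because the genes are known targets of shared inflammatory transcription factors. RefSeq promoter windows of build GRCr8, which run from 250 bases before to 50 bases after the annotated start, matched 7 of the 8 genes by symbol, all but Ccl2. The counts themselves were made on another build, Rnor_6.0, so these coordinates belong to the promoter table only. In the windows below, written 5′ to 3′ along the gene, capitals mark matches on either strand to TATAAA, the NF-kB motif, the AP-1 motif TGANTCA or the CRE motif TGACGTCA.
Il6 (GRCr8 chr4:5894526-5894825, minus strand): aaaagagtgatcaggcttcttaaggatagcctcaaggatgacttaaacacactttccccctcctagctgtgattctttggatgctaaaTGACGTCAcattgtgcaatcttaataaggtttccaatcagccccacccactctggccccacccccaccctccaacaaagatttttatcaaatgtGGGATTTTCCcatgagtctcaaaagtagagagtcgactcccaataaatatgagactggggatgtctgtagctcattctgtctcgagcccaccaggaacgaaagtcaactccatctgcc
Cxcl1 (GRCr8 chr14:17479272-17479571, minus strand): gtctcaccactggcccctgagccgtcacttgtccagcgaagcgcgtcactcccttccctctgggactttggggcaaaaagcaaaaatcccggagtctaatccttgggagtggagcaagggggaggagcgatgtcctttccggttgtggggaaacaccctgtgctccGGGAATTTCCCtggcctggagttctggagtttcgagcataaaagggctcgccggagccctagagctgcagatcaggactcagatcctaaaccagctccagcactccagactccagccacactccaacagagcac
Ptgs2 (GRCr8 chr13:64713813-64714112, plus strand): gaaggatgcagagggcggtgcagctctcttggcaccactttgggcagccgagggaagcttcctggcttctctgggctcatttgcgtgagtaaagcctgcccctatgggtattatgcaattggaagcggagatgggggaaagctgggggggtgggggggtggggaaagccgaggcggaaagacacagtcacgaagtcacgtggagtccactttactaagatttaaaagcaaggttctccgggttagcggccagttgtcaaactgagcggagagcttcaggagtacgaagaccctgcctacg
Vcam1 (GRCr8 chr2:206742734-206743033, minus strand): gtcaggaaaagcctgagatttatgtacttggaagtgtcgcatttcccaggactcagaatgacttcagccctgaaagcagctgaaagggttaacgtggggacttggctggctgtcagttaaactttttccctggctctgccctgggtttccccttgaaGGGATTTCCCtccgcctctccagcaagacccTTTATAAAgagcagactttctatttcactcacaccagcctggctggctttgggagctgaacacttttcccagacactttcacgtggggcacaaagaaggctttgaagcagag
Il6 had a CRE match at -162 to -155 and an NF-kB match at -68 to -59, counted from the start. Cxcl1 had NF-kB matches on both strands that overlapped, at -84 to -75 and at -83 to -74. In Vcam1 the same stretch at -93 to -84 matched NF-kB on both strands, and TATAAA matched at -60 to -55 with an overlapping match on the other strand. The Ptgs2 window held none of these 4 motifs.

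Across the 7 windows, 4 held the NF-kB motif (Il6, Cxcl1, Vcam1 and Lcn2), against 7.51% of the 33469 rat promoters of the same length. TATAAA was present in 3 (Il1b, Icam1 and Vcam1), against 14.2% of all promoters, and the CRE motif in 1 (Il6), against 1.83%. The AP-1 motif, present in 7.33% of all promoters, matched in 0 of the 7. Of the C/EBP motifs, TTGCGCAA matched in 0 (0.17% of all promoters) and the looser TTNNGNAA, which includes it, in 5 (41.3% of all promoters), all but Cxcl1 and Vcam1. A match describes these letters only, and none was tested for binding.

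Total counts ran from 3255012 to 6810496 per library (median 5030414). CPM below are scaled by edgeR's TMM factors, which make libraries comparable for one gene but not genes with each other, since gene length is not in the unit. A pair of detrusor libraries stood apart in measures that were not limited to the 8 genes. Detrusor SCI-vehicle replicate 1 lay 25.9% of the way from detrusor toward mucosa over 315 genes enriched in mucosa, whereas the other 8 detrusor libraries lay between -1.59% and 10.2%. Mucosa libraries lay between -5.45% and 10.8% of the way toward detrusor over 342 genes enriched in detrusor. The highest were Mucosa SCI-inosine replicate 1 (10.8%) and Mucosa Control replicate 1 (8.18%). In Detrusor SCI-inosine replicate 2 only 14126 genes had any read, whereas 16475 to 17842 did in the other detrusor libraries. The differences that include either of this detrusor pair are also given without it, beside the result or together after the comparison of the tissues. In bulk tissue, fewer cells of a type and less RNA per cell cannot be told apart.

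**Figure D1:**
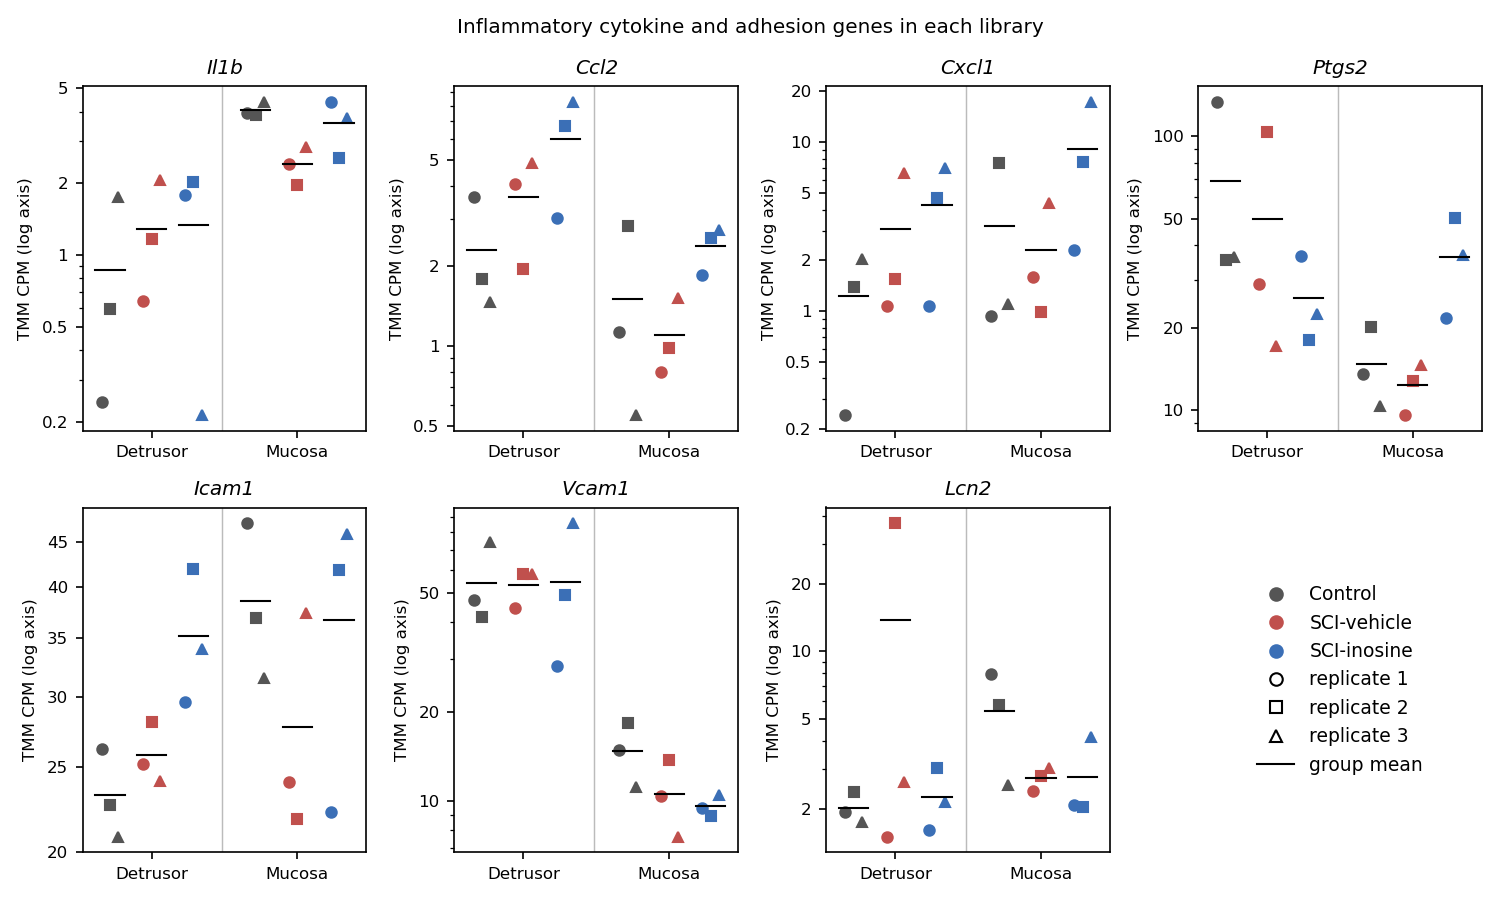
TMM-scaled CPM on a log axis for the 7 genes that passed the filter, in each of the 18 libraries, with colours for the treatment, symbols for the replicate number and a line at the mean of 3 libraries. All detrusor Vcam1 points lie above all mucosa points, 1 SCI-vehicle detrusor library stands far above the other detrusor libraries for Lcn2 at 37.2 CPM, and the 3 SCI-inosine mucosa libraries lie above the other mucosa libraries for Ptgs2.

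Of the 2 cytokines, Il6 was at the limit of detection and Il1b was low, more so in detrusor. Il6, the interleukin that drives the acute phase response, had 3 reads in the 18 libraries together. These were 1 read each in Mucosa SCI-vehicle replicate 1, Mucosa SCI-vehicle replicate 3 and Mucosa SCI-inosine replicate 3. In detrusor, 0 of 52247373 reads fell on Il6, which allows a level of up to 0.0574 CPM over the 9 libraries (3 counts over the raw totals, without TMM scaling). In mucosa, 3 of 38923905 reads did. For single libraries a count of 0 allows 0.44 to 0.922 CPM, also without TMM scaling, so a difference in Il6 between the groups was not detectable at this depth. These limits cover counting error only.

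Il1b, the cytokine that activated myeloid cells release after inflammasome cleavage, rested on few reads in detrusor. There it had 1, 3 and 6 reads in Control (0.242, 0.596 and 1.75 CPM), 3, 6 and 11 in SCI-vehicle (0.641, 1.17 and 2.06 CPM) and 10, 12 and 1 in SCI-inosine (1.78, 2.02 and 0.213 CPM). The 3 detrusor groups overlapped, and the 95% confidence interval of SCI-vehicle versus Control, from -1.44 to 2.71 on the log2 scale, is too wide to tell a fall from a rise.

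In mucosa Il1b was steadier. Control libraries had 3.95, 3.87 and 4.40 CPM (21, 26 and 24 reads), SCI-vehicle 2.40, 1.97 and 2.83 CPM (12, 12 and 13 reads), and SCI-inosine 4.39, 2.55 and 3.77 CPM (19, 10 and 18 reads). All 3 SCI-vehicle libraries lay below all 3 Control libraries, and the SCI-inosine libraries spanned both. For SCI-vehicle against Control the fit gave a log2 fold change of -0.80 ± 0.29 (SE, n = 3 per group), with an unadjusted p of 0.0213 and an adjusted p of 0.414 in edgeR's quasi-likelihood test. Il1b was the only one of the 7 genes whose libraries did not overlap in this comparison, in which 15.9% of all genes tested did not overlap. SCI-inosine versus SCI-vehicle gave 0.60 ± 0.30 (adjusted p = 0.884, edgeR).

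Of the chemokines, Ccl2 recruits monocytes through the receptor Ccr2. In detrusor it had 3.64, 1.79 and 1.46 CPM in Control (15, 9 and 5 reads), 4.06, 1.95 and 4.86 CPM in SCI-vehicle (19, 10 and 26 reads) and 3.03, 6.73 and 8.29 CPM in SCI-inosine (17, 40 and 39 reads). Means stood in the order Control, SCI-vehicle, SCI-inosine, at 2.30 ± 1.17, 3.62 ± 1.5 and 6.02 ± 2.7 CPM (SD, n = 3), and neighbours in that order overlapped. SCI-inosine versus Control gave a log2 fold change of 1.38 ± 0.56 (SE), with an unadjusted p of 0.0309 and an adjusted p of 0.329 (edgeR). The highest Control library (replicate 1, 3.64 CPM) lay above the lowest SCI-inosine library. Without Detrusor SCI-inosine replicate 2 the value was 1.28, with an adjusted p of 0.566 (edgeR).

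In mucosa Ccl2 had 1.13, 2.83 and 0.55 CPM in Control (6, 19 and 3 reads), 0.799, 0.985 and 1.52 CPM in SCI-vehicle (4, 6 and 7 reads) and 1.85, 2.55 and 2.72 CPM in SCI-inosine (8, 10 and 13 reads). The SCI-inosine libraries all lay above the SCI-vehicle libraries, while Control replicate 2 lay above every other mucosa library. SCI-inosine versus SCI-vehicle gave 1.12 ± 0.58 (log2, SE), with an adjusted p of 0.885 (edgeR). Against Control, SCI-vehicle gave -0.53 ± 0.58 (adjusted p = 0.787, edgeR), and 0.35 without Control replicate 2.

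Cxcl1, the ligand that draws neutrophils through Cxcr2, varied widely between libraries of one group. In detrusor it had 0.242, 1.39 and 2.05 CPM in Control (1, 7 and 7 reads), 1.07, 1.56 and 6.54 CPM in SCI-vehicle (5, 8 and 35 reads) and 1.07, 4.71 and 7.02 CPM in SCI-inosine (6, 28 and 33 reads). In mucosa it had 0.942, 7.59 and 1.10 CPM in Control (5, 51 and 6 reads), 1.60, 0.985 and 4.35 CPM in SCI-vehicle (8, 6 and 20 reads) and 2.31, 7.65 and 17.4 CPM in SCI-inosine (10, 30 and 83 reads). Within a group the highest library held 4.41 to 8.45 times the level of the lowest, and all groups of a tissue overlapped.

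The differences in Cxcl1 had wide errors. SCI-inosine versus Control in detrusor gave a log2 fold change of 1.80 ± 0.92 (SE), with an adjusted p of 0.411, and SCI-inosine versus SCI-vehicle in mucosa gave 2.05 ± 0.92, with an unadjusted p of 0.0494 and an adjusted p of 0.882 (edgeR). The mucosa value was 1.14 without SCI-inosine replicate 3, and SCI-vehicle versus Control in mucosa moved from -0.61 to 1.09 without Control replicate 2.

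Ptgs2 encodes cyclooxygenase-2, the inducible enzyme of prostaglandin synthesis. In mucosa it had 13.6, 20.1 and 10.4 CPM in the Control libraries, 9.59, 12.8 and 14.6 CPM in SCI-vehicle and 21.7, 50.5 and 37.0 CPM in SCI-inosine. Every SCI-inosine library lay above every other mucosa library, and the Control and SCI-vehicle libraries overlapped. SCI-inosine versus SCI-vehicle gave a log2 fold change of 1.58 ± 0.34 (SE), or 2.99-fold (95% confidence interval 1.77 to 5.05), with an unadjusted p of 0.000877, rank 14 among the 15740 genes tested. The adjusted p was 0.881 in edgeR's quasi-likelihood test, so the difference did not pass. SCI-inosine versus Control gave 1.29 ± 0.33 (2.44-fold), with an unadjusted p of 0.00303 and an adjusted p of 0.829. Comparing SCI-vehicle with Control gave -0.30 ± 0.35 (adjusted p = 0.803).

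The call for Ptgs2 in mucosa differed between the tools. DESeq2 on the same counts gave the same fold change for SCI-inosine versus SCI-vehicle, 1.58 ± 0.36, with an unadjusted p of 1.39e-05 and an adjusted p of 0.0182. In that comparison edgeR called 1 gene of 15740 (0.00635%) and DESeq2 13. Over the 13 alternatives tried, the log2 fold change stayed between 1.26 and 1.86, the unadjusted p between 1.39e-05 and 0.0234, and the adjusted p between 0.0182 and 1.

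In detrusor Ptgs2 depended on single libraries. It had 134, 35.5 and 36.3 CPM in the Control libraries, 28.9, 104 and 17.2 CPM in SCI-vehicle and 36.6, 18.0 and 22.5 CPM in SCI-inosine. Control replicate 1 and SCI-vehicle replicate 2 were the 2 high libraries, and the rest of all 3 groups lay between 17.2 and 36.6 CPM. SCI-inosine versus Control gave a log2 fold change of -1.42 ± 0.66 (SE), with an adjusted p of 0.374, and -0.48 without Control replicate 1. SCI-inosine versus SCI-vehicle gave -0.97 ± 0.66 (adjusted p = 0.952), and 0.14 without SCI-vehicle replicate 2. The difference of SCI-vehicle from Control was -0.45 ± 0.64 (adjusted p = 0.816), and 0.49 without Control replicate 1.

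The differences of SCI-inosine from the other groups in Ptgs2 were compared between the tissues by the interaction in one edgeR model of all 18 libraries. SCI-inosine versus Control holds the injury, the injections and inosine together, and only SCI-inosine versus SCI-vehicle sets inosine apart. The log2 fold change of SCI-inosine versus Control was higher in mucosa than in detrusor by 2.71 ± 0.85 (SE), with an unadjusted p of 0.00548 and an adjusted p of 0.306. That of SCI-inosine versus SCI-vehicle was higher by 2.51 ± 0.86, with an unadjusted p of 0.0095 and an adjusted p of 1. Leaving out 1 high detrusor library lowered these to 1.78 once Control replicate 1 was dropped, and to 1.40 once SCI-vehicle replicate 2 was dropped. In DESeq2 the first interaction had an adjusted p of 0.0953.

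Icam1, the intercellular adhesion molecule that binds the leukocyte integrin LFA-1, varied little between libraries of a group in detrusor. It had 26.2, 22.6 and 20.8 CPM in the Control libraries, 25.2, 28.1 and 24.1 CPM in SCI-vehicle and 29.6, 41.9 and 34.0 CPM in SCI-inosine. The 3 SCI-inosine libraries lay above all 6 other detrusor libraries, and Control and SCI-vehicle overlapped. SCI-inosine versus Control gave a log2 fold change of 0.60 ± 0.18 (SE), or 1.52-fold (95% confidence interval 1.15 to 2.00), with an unadjusted p of 0.00638 and an adjusted p of 0.213 (edgeR). SCI-inosine versus SCI-vehicle gave 0.43 ± 0.18, with an unadjusted p of 0.0324 and an adjusted p of 0.952, and SCI-vehicle versus Control 0.17 ± 0.18 (adjusted p = 0.741). Neither comparison with SCI-inosine passed, and without SCI-inosine replicate 2, the library with fewer genes, the values were 0.46 (adjusted p = 0.494) and 0.29 (adjusted p = 1). Detrusor SCI-inosine libraries did not overlap with Control for 18.6% of all genes tested, nor with SCI-vehicle for 9.29%, and Icam1 was the 1 gene of the 7 in each case.

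In mucosa Icam1 had 47.3, 36.9 and 31.5 CPM in the Control libraries, 24.0, 21.8 and 37.4 CPM in SCI-vehicle and 22.2, 41.8 and 46.0 CPM in SCI-inosine. All 3 groups overlapped. For SCI-vehicle against Control the fit gave -0.50 ± 0.30 (log2, SE) with an adjusted p of 0.59, SCI-inosine versus SCI-vehicle 0.43 ± 0.30 with an adjusted p of 0.889, and SCI-inosine versus Control -0.08 ± 0.29 (adjusted p = 0.998, edgeR).

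Vcam1, which holds lymphocytes and monocytes through the integrin VLA-4, had like means in the 3 detrusor groups. Control had 47.3, 41.5 and 74.0 CPM, SCI-vehicle 44.7, 57.9 and 57.8 CPM and SCI-inosine 28.5, 49.3 and 85.9 CPM. The means were 54.3 ± 17.3, 53.5 ± 7.59 and 54.6 ± 29.0 CPM (SD, n = 3). Against Control, SCI-vehicle gave a log2 fold change of 0.00 with a 95% confidence interval from -0.75 to 0.75, so a change of up to 1.68-fold either way lies within the interval.

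In mucosa Vcam1 had 14.9, 18.3 and 11.2 CPM in the Control libraries, 10.4, 13.8 and 7.61 CPM in SCI-vehicle and 9.47, 8.92 and 10.5 CPM in SCI-inosine. The SCI-inosine libraries all lay below the Control libraries, and SCI-vehicle overlapped with both. SCI-inosine versus Control gave a log2 fold change of -0.64 ± 0.25 (SE), with an unadjusted p of 0.0294 and an adjusted p of 0.968 (edgeR). Comparing SCI-vehicle with Control gave -0.51 ± 0.25 (adjusted p = 0.52), and SCI-inosine versus SCI-vehicle -0.13 ± 0.26 (adjusted p = 0.957). Mucosa SCI-inosine and Control did not overlap for 9.9% of all genes tested and for 2 of the 7 genes here, Ptgs2 above and Vcam1 below Control.

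Lcn2 was low except in 1 library. Detrusor Control had 1.94, 2.38 and 1.75 CPM (8, 12 and 6 reads), SCI-vehicle 1.5, 37.2 and 2.62 CPM (7, 191 and 14 reads) and SCI-inosine 1.61, 3.03 and 2.13 CPM (9, 18 and 10 reads). SCI-vehicle replicate 2, the library that was also high in Ptgs2, stood far above the other 8 detrusor libraries, which lay between 1.5 and 3.03 CPM in all groups. The difference of SCI-vehicle from Control was a log2 fold change of 2.75 ± 1.0 (SE), with an unadjusted p of 0.0184 and an adjusted p of 0.291 (edgeR), and 0.04 without replicate 2. Without SCI-vehicle replicate 1 it was 3.27 (adjusted p = 0.27). SCI-inosine versus SCI-vehicle gave -2.60 ± 0.97 (adjusted p = 0.952), and 0.11 without that library. DESeq2 gave a log2 fold change of 2.76 for SCI-vehicle versus Control and no p for this gene in detrusor.

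Mucosa Lcn2 had 7.91, 5.80 and 2.56 CPM in Control (42, 39 and 14 reads), 2.40, 2.79 and 3.04 CPM in SCI-vehicle (12, 17 and 14 reads) and 2.08, 2.04 and 4.18 CPM in SCI-inosine (9, 8 and 20 reads). Control replicates 1 and 2 were the highest mucosa libraries and Control replicate 3 lay among the others. For SCI-vehicle against Control the fit gave -1.0 ± 0.43 (log2, SE), with an unadjusted p of 0.0405 and an adjusted p of 0.465, and SCI-inosine versus Control -0.96 ± 0.44 (adjusted p = 0.983, edgeR). The interaction of SCI-vehicle versus Control, mucosa minus detrusor, was -3.72 ± 1.21 (unadjusted p = 0.00721, adjusted p = 0.28), which was -1.0 without Detrusor SCI-vehicle replicate 2.

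Ordered by the mean of 3 libraries (± SD), the 6 groups ran differently for each gene. Il1b ran from 4.07 ± 0.283 CPM in Mucosa Control through 3.57 ± 0.936 in Mucosa SCI-inosine and 2.40 ± 0.428 in Mucosa SCI-vehicle to 1.34 ± 0.983, 1.29 ± 0.715 and 0.864 ± 0.791 CPM in Detrusor SCI-inosine, SCI-vehicle and Control. Ccl2 was highest in Detrusor SCI-inosine and SCI-vehicle, followed by Mucosa SCI-inosine (2.37 ± 0.462 CPM), Detrusor Control, Mucosa Control (1.5 ± 1.18 CPM) and Mucosa SCI-vehicle (1.10 ± 0.375 CPM). For Cxcl1 the highest mean was Mucosa SCI-inosine (9.11 ± 7.63 CPM) and the lowest Detrusor Control (1.23 ± 0.914 CPM). In all 3 genes neighbours in the order overlapped.

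Ptgs2 ran from Detrusor Control (68.6 ± 56.7 CPM) and Detrusor SCI-vehicle (49.9 ± 46.8 CPM) through Mucosa SCI-inosine (36.4 ± 14.4 CPM) and Detrusor SCI-inosine (25.7 ± 9.68 CPM) to Mucosa Control (14.7 ± 4.92 CPM) and Mucosa SCI-vehicle (12.3 ± 2.52 CPM), each overlapping with the next. Icam1 stayed within a narrow range, from 38.6 ± 8.01 CPM in Mucosa Control to 23.2 ± 2.75 CPM in Detrusor Control, and Lcn2 ran from 13.8 ± 20.3 CPM in Detrusor SCI-vehicle to 2.03 ± 0.323 CPM in Detrusor Control, again with overlap between all neighbours. Vcam1 was the 1 gene with a gap in its order, between the lowest detrusor mean (SCI-vehicle) and the highest mucosa mean (Control, 14.8 ± 3.56 CPM).

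**Figure D2:**
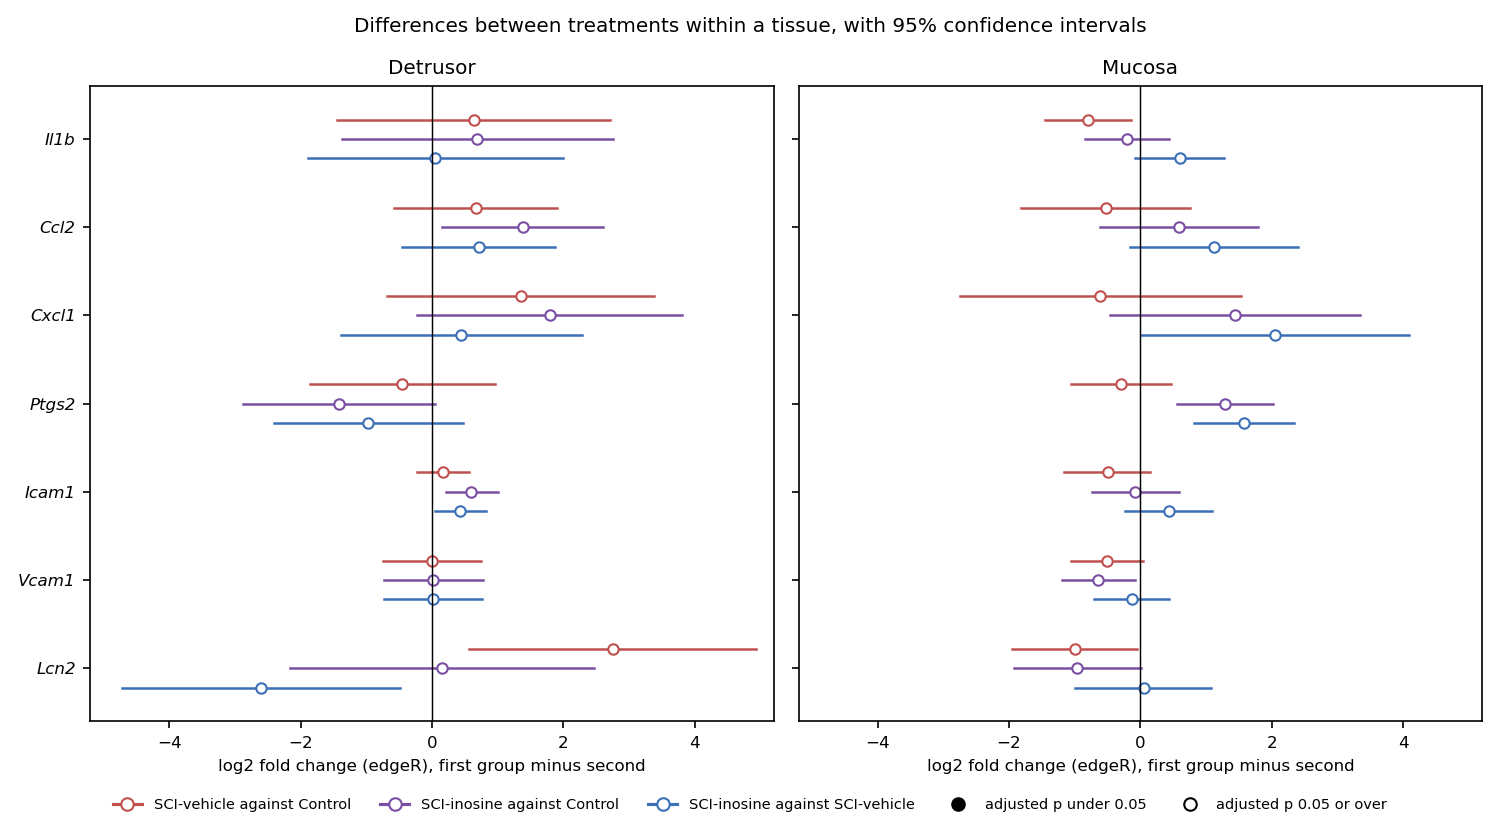
Log2 fold changes from edgeR's quasi-likelihood fit (points) with 95% confidence intervals (lines) for the 7 genes in the 3 comparisons of each tissue, where open points mark an adjusted p of 0.05 or over. All 42 points are open, and the mucosa Ptgs2 intervals for SCI-inosine lie above 0.

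Counted over the genes, 0 of the 7 passed an adjusted p under 0.05 in any of the 6 comparisons within a tissue. Of all 15740 genes, edgeR called 12 (0.0762%) in detrusor for SCI-vehicle versus Control, 46 (0.292%) for SCI-inosine versus Control and 0 for SCI-inosine versus SCI-vehicle, and in mucosa 0, 0 and 1 (0.00635%). At an unadjusted p under 0.05, the 7 had 1 gene in detrusor for SCI-vehicle versus Control (13% of all genes), 2 for SCI-inosine versus Control (13.6%) and 2 for SCI-inosine versus SCI-vehicle (4.38%). In mucosa there were 2 in each of the 3 comparisons (10.2%, 5% and 5.53% of all genes). Non-overlapping libraries were found for 0 of the 7 genes for SCI-vehicle versus Control in detrusor (20.5% of all genes) and for 2, Ccl2 and Ptgs2, for SCI-inosine versus SCI-vehicle in mucosa (9.16%). DESeq2 called 0 of the 7 in 5 of the 6 comparisons and 1, Ptgs2, in the sixth. Genes to which it gave no adjusted p were counted as not called. These included Lcn2 in detrusor and Il1b in detrusor for SCI-inosine versus Control. In mucosa they included Il1b for SCI-inosine versus SCI-vehicle and Ccl2 for SCI-inosine versus either group.

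The signs of the 7 genes differed between the tissues as a description. In detrusor, SCI-vehicle versus Control was above 0 for 5 of the 7, 0.00 for Vcam1 and below 0 for Ptgs2, with a median of 0.64 (0.01 over all genes tested, of which 51.2% were above 0). With 1 library left out, Lcn2 was as low as 0.04, Il1b 0.13 and Cxcl1 0.14, and Ptgs2 turned above 0. In mucosa it was below 0 for 7 of 7, with a median of -0.53 (0.00 over all genes, of which 49.4% were above 0), although 3 of the 7 (Ccl2, Cxcl1 and Ptgs2) turned above 0 without Mucosa Control replicate 2. SCI-inosine versus SCI-vehicle in mucosa was above 0 for 6 of 7 (all but Vcam1), with a median of 0.60 (0.00 over all genes, of which 49.8% were above 0). Of these, Lcn2 was close to 0, at 0.05. Over the alternatives tried, Lcn2 ran from -0.40 to 0.24 and Vcam1 from -0.31 to 0.09. The comparisons of a tissue share libraries, so these medians are not independent. The 21 interactions had adjusted p-values from 0.28 to 1, and 4 had an unadjusted p under 0.05, all of them Ptgs2 or Lcn2, where 11% (SCI-vehicle versus Control), 10.4% (SCI-inosine versus Control) and 3.87% (SCI-inosine versus SCI-vehicle) of all genes did. edgeR called 0.121% of all genes in the interaction of SCI-vehicle versus Control and 0% in the other two.

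Mucosa and detrusor were then compared within each treatment, in one edgeR model of the 18 libraries. Vcam1 was the 1 gene of the 7 that passed in all 3 treatments. It was lower in mucosa, with a log2 fold change of -1.86 ± 0.33 (SE) in Control (adjusted p = 0.000255), -2.32 ± 0.34 in SCI-vehicle (adjusted p = 5.75e-05) and -2.49 ± 0.35 in SCI-inosine (adjusted p = 5.36e-05). These are levels 3.64, 4.99 and 5.64 times higher in detrusor. The 9 mucosa libraries, at 7.61 to 18.3 CPM, lay below the 9 detrusor libraries, at 28.5 to 85.9 CPM, and the call held under all 11 alternatives in each treatment. Without Detrusor SCI-vehicle replicate 1 the SCI-vehicle value was -2.43, and without Detrusor SCI-inosine replicate 2 the SCI-inosine value was -2.64.

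Ptgs2 was lower in mucosa in Control (-2.21 ± 0.61, adjusted p = 0.00751) and in SCI-vehicle (-2.02 ± 0.62, adjusted p = 0.0139), and in both the libraries did not overlap. Without Detrusor Control replicate 1 the Control value was -1.28 (adjusted p = 0.0905), and without Detrusor SCI-vehicle replicate 2 the SCI-vehicle value was -0.90 (adjusted p = 0.2), so neither call stood without the high library. The SCI-vehicle call was also lost without Mucosa SCI-vehicle replicate 1 (-1.87). In SCI-inosine the difference was 0.50 ± 0.59 (adjusted p = 0.518), with overlap.

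Il1b was higher in mucosa in Control by 2.28 ± 0.64 (adjusted p = 0.00852, 4.85-fold), a call that held under all 11 alternatives, though it rested on 1 to 6 reads in the detrusor libraries. The SCI-vehicle value was 0.86 ± 0.61 (adjusted p = 0.254) and the SCI-inosine value 1.37 ± 0.59 (adjusted p = 0.0716; 0.0366 in DESeq2). Icam1 was higher in mucosa in Control by 0.73 ± 0.25 (adjusted p = 0.0277), a call lost without Detrusor Control replicate 2 (adjusted p = 0.0729), Detrusor Control replicate 3 (0.0858) or Mucosa Control replicate 1 (0.118). Its differences in SCI-vehicle (0.10 ± 0.25) and SCI-inosine (0.06 ± 0.25) were close to 0.

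Ccl2 was lower in mucosa in SCI-vehicle, at -1.71 ± 0.59 (adjusted p = 0.0251), with no overlap, a call lost without any of 4 libraries, namely Detrusor SCI-vehicle replicate 1 (adjusted p = 0.0542) or 3 (0.0986) and Mucosa SCI-vehicle replicate 1 (0.0826) or 2 (0.0754). In SCI-inosine the value was -1.33 ± 0.54 (adjusted p = 0.0564; 0.0482 in DESeq2), and in Control -0.57 ± 0.58 (adjusted p = 0.457). Cxcl1 differed by 1.44 ± 1.07 among Control, -0.45 ± 0.98 among SCI-vehicle and 1.11 ± 0.88 among SCI-inosine libraries, with adjusted p-values of 0.295, 0.728 and 0.325.

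Lcn2 passed in SCI-vehicle, at -2.32 ± 0.83 (adjusted p = 0.03), but its libraries overlapped and the difference was 0.40 (adjusted p = 0.562) without Detrusor SCI-vehicle replicate 2. The call was also lost without any 1 of the 3 Mucosa SCI-vehicle libraries (adjusted p = 0.0815, 0.0763 and 0.065 without replicates 1, 2 and 3), and the value was -2.85 without Detrusor SCI-vehicle replicate 1. In Control the 3 mucosa libraries lay above the 3 detrusor libraries (1.40 ± 0.89, adjusted p = 0.221), and in SCI-inosine the difference was 0.30 ± 0.91 (adjusted p = 0.81).

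**Figure D3:**
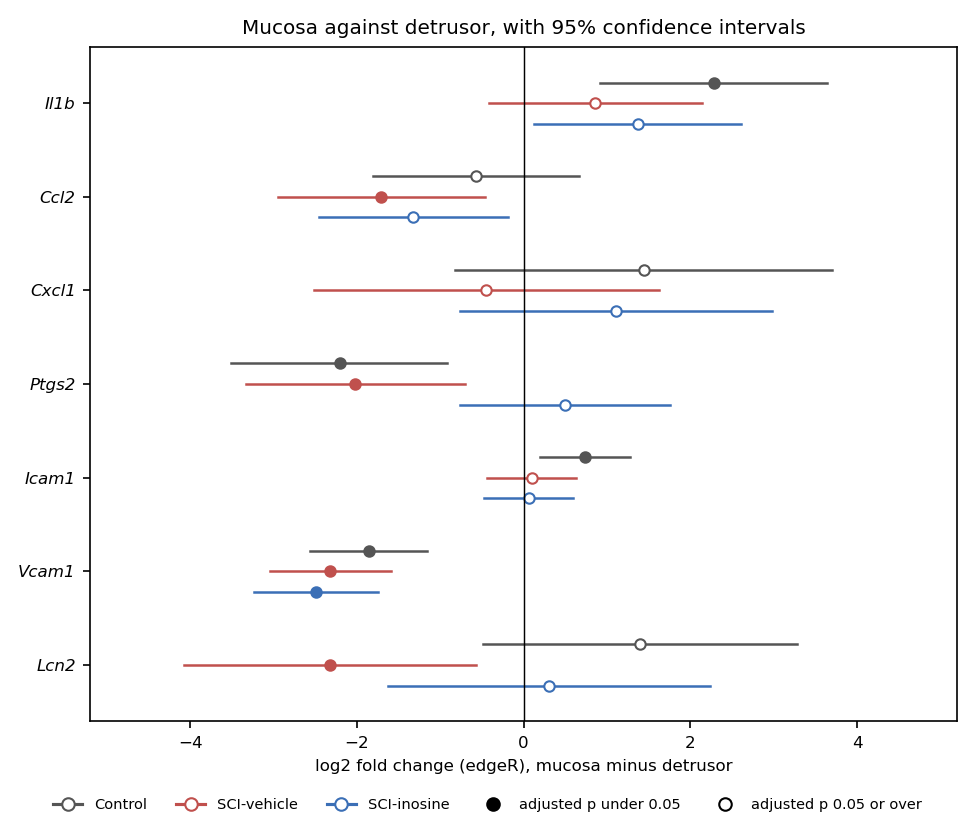
Log2 fold changes of mucosa minus detrusor from edgeR (points) with 95% confidence intervals (lines) for the 7 genes in Control, SCI-vehicle and SCI-inosine, where filled points mark an adjusted p under 0.05. Vcam1 is filled and between -2.49 and -1.86 in all 3 treatments, and Ptgs2 is filled in Control and SCI-vehicle only.

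Between the tissues, 4 of the 7 genes passed in Control, 2 higher in mucosa (Il1b and Icam1) and 2 lower (Ptgs2 and Vcam1), where 44.5% of all genes tested passed. In SCI-vehicle 4 passed, all lower in mucosa (47.1% of all genes, and 21.7% lower), and in SCI-inosine 1 passed, Vcam1 (42.7% of all genes). The libraries of the tissues did not overlap for 5 genes among Control (56.8% of all genes), 3 among SCI-vehicle (60.7%) and 3 among SCI-inosine libraries (50.3%). Against these backgrounds none of the counts was read as a result about the genes together, and the SCI-vehicle count of 4 was 1 without Mucosa SCI-vehicle replicate 1 and 2 without Mucosa SCI-vehicle replicate 2 or Detrusor SCI-vehicle replicate 2.

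The pair of detrusor libraries that stood apart entered these differences as follows. Without Detrusor SCI-vehicle replicate 1, SCI-vehicle versus Control in detrusor was 0.95 for Il1b, 0.57 for Ccl2, 1.74 for Cxcl1, -0.18 for Ptgs2, 0.18 for Icam1 and 0.11 for Vcam1. SCI-inosine versus SCI-vehicle without it was -0.25 for Il1b, 0.80 for Ccl2, 0.06 for Cxcl1, -1.24 for Ptgs2, 0.43 for Icam1, -0.09 for Vcam1 and -3.13 for Lcn2. Mucosa against detrusor in SCI-vehicle without it was 0.55 for Il1b, -1.62 for Ccl2, -0.85 for Cxcl1, -2.29 for Ptgs2 and 0.08 for Icam1, and of the 4 calls Ccl2 was lost.

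Leaving out Detrusor SCI-inosine replicate 2 changed no call on the 7 genes. SCI-inosine versus Control in detrusor was then 0.31 for Il1b, 1.71 for Cxcl1, -1.21 for Ptgs2, 0.08 for Vcam1 and -0.14 for Lcn2. SCI-inosine versus SCI-vehicle was -0.35 for Il1b, 0.62 for Ccl2, 0.36 for Cxcl1, -0.76 for Ptgs2, 0.08 for Vcam1 and -2.89 for Lcn2. The tissue difference in SCI-inosine was 1.68 for Il1b, -1.31 for Ccl2, 1.13 for Cxcl1, 0.21 for Ptgs2, 0.13 for Icam1 and 0.51 for Lcn2. The Ptgs2 interactions were 2.49 (SCI-inosine versus Control) and 2.33 (SCI-inosine versus SCI-vehicle) without that library, the second was 2.79 without Detrusor SCI-vehicle replicate 1, and the Lcn2 interaction of SCI-vehicle versus Control was -4.24 without Detrusor SCI-vehicle replicate 1.

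Within mucosa, Ccl2, Cxcl1 and Ptgs2 tended to be high in the same libraries. Over the 9 mucosa libraries, log2 CPM of Ccl2 and Cxcl1 had Pearson's r = 0.88 (exact permutation p = 0.00297, two-sided) and Spearman's rho = 0.83 (exact permutation p = 0.00827). For Ccl2 and Ptgs2, r was 0.87 (exact permutation p = 0.00179) and rho 0.90 (exact permutation p = 0.00203), and for Cxcl1 and Ptgs2 r was 0.81 (exact permutation p = 0.00761) and rho 0.78 (exact permutation p = 0.0172). Over the 42 relations computed, 21 pairs in each tissue, the Benjamini-Hochberg adjusted values of these 3 r were 0.0623, 0.0623 and 0.106, so none passed 0.05 by exact permutation. Without the 2 libraries farthest from the median of the gene named first, r was 0.92, 0.82 and 0.63, and with each group's mean removed it was 0.81, 0.79 and 0.73. Each permutation, here and in detrusor, ran over all 9 libraries without regard to group. These p-values therefore do not set aside differences between the groups, and the r with group means removed was not tested. The libraries share their scaling and, for Ccl2, counts of 3 to 19 reads.

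Detrusor did not show the same pattern. Cxcl1 and Ptgs2 had r = -0.77 (exact permutation p = 0.0134, adjusted 0.141) and rho = -0.75 (exact permutation p = 0.0255), and r stayed at -0.71 without the 2 libraries farthest on Cxcl1 and at -0.70 with group means removed. The 3 detrusor libraries with the most Cxcl1 (SCI-vehicle replicate 3 and SCI-inosine replicates 2 and 3) were the 3 with the least Ptgs2. Ccl2 and Cxcl1 had r = 0.56 (exact permutation p = 0.123, adjusted 0.566) and rho = 0.47 (exact permutation p = 0.213), and Ccl2 and Ptgs2 r = -0.51 (exact permutation p = 0.169, adjusted 0.646) and rho = -0.63 (exact permutation p = 0.076). The difference between the tissues in these relations was not tested.

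**Figure D4:**
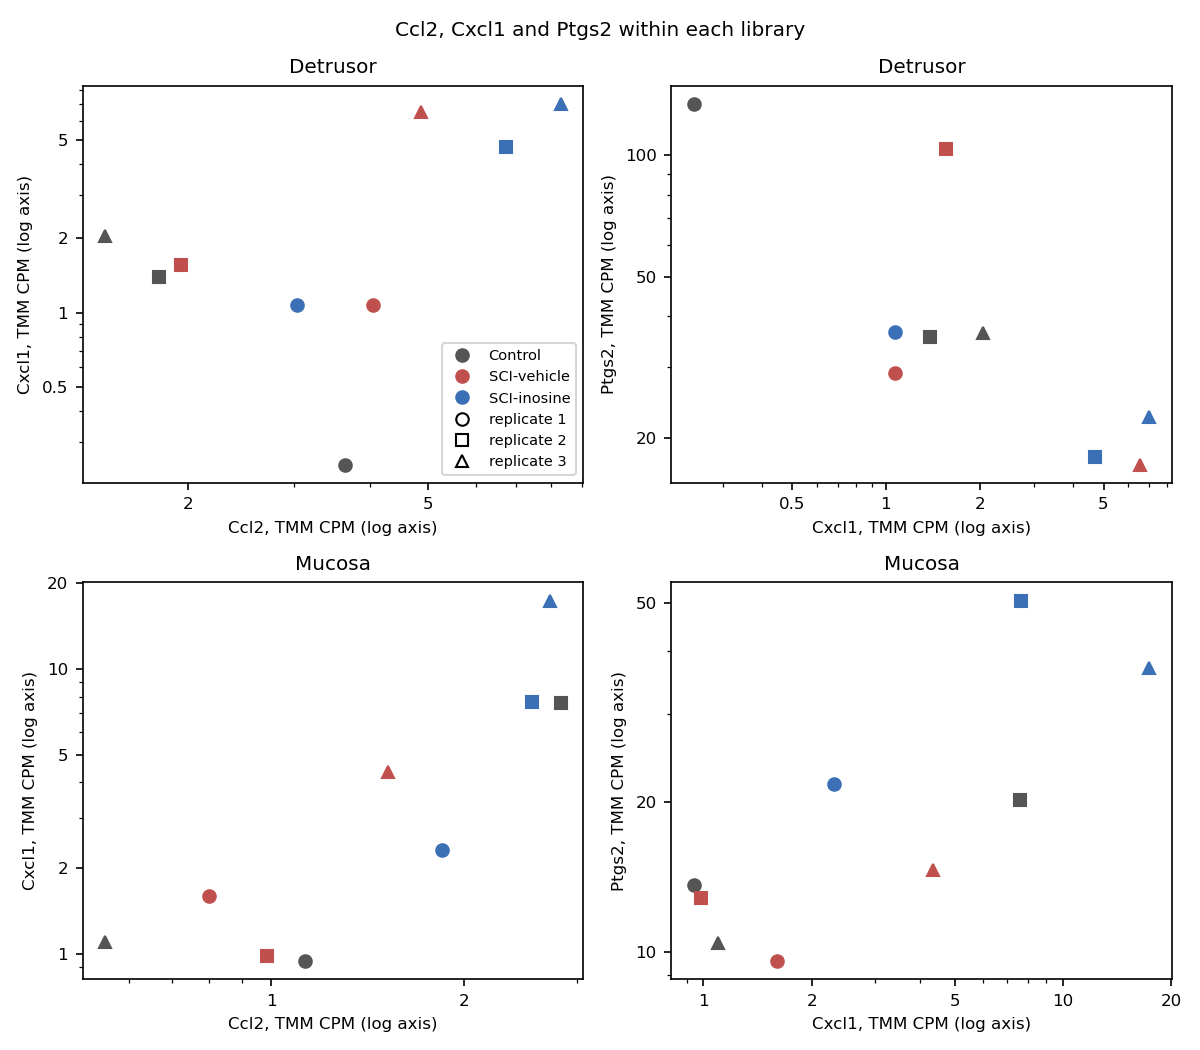
Cxcl1 against Ccl2 (left) and Ptgs2 against Cxcl1 (right) in TMM-scaled CPM on log axes, 1 point per library, for detrusor (top) and mucosa (bottom), with colours for treatment and symbols for replicate number. In mucosa the points rise together (r = 0.88 and 0.81, n = 9), and in detrusor Ptgs2 is lower where Cxcl1 is higher (r = -0.77, n = 9).

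Set against all other genes, with each tissue's mean removed and over the 18 libraries, Cxcl1 ranked 44 of 15739 genes by r with Ccl2 (r = 0.72), and Ccl2 ranked 140 by r with Cxcl1. Genes most like each gene reached r between 0.773 and 0.901. The most like Ccl2 was ENSRNOG00000018484 (r = 0.875) and the most like Cxcl1 was ENSRNOG00000047459 (r = 0.901), which the files do not pair with names. These ranks are a description over libraries that share treatment and tissue.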

How the data were processed

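Ribosome-depleted total RNA of bladder detrusor and mucosa was sequenced as stranded bulk libraries, and reads from 2 flow cells were summed by the authors. The deposited values were raw read counts per Ensembl gene. The submitters' processing notes name FastQC 0.11.9, MultiQC 1.13, Trim Galore 0.6.10, STAR 2.7.10a, SAMtools 1.17, featureCounts 2.0.3 and build Rnor_6.0, and the strand setting of the counting is not given in the sources used here. No column was left unused (0).

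Counts were tested with edgeR 4.0.16 (R 4.3.3) by quasi-likelihood F tests with TMM factors on genes over 1 CPM in at least 3 of 18 libraries, with Benjamini-Hochberg adjustment over all 15740 genes and a threshold of 0.05. Each tissue was fitted on its 9 libraries, and tissues and interactions in one model of 6 groups. The study's methods used DESeq2, run here as an alternative (1.42.0). Other alternatives were DESeq2's size factors, other filters on low counts, other sets of samples in the fit, the replicate number as a block, and each library left out in turn. Biological variation (BCV) was 26.5% in detrusor and 20% in mucosa. Fits were tested on simulated data. Correlations took log2 CPM (prior count 2), Python 3.11.15, NumPy 2.4.6 and SciPy 1.17.1, and figures matplotlib 3.10.9.

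All 8 genes were named whatever their values. The genes and lists were chosen with earlier results of these data known. Lists of other pathway genes and of cell type markers were not run, because identifiers are not paired with names in the files or tables used here, so the tissue labels could not be checked against named markers. With each group's mean removed, same-numbered detrusor and mucosa libraries of one treatment correlated at -0.014 to 0.228 (median 0.108, 5 of 9 pairs over 0.1). Different-numbered ones correlated at -0.236 to 0.115 (median -0.044, 1 of 18 pairs over 0.1). Same-numbered libraries were thus somewhat more alike, but the labels name no rats. The main fits of both tissues did not take the numbers as pairs, and whether the 18 libraries are independent was not settled. Fits with the replicate number as a block are given as an alternative. Between the tissues and in the interactions, the block joined same-numbered detrusor and mucosa libraries of one treatment. Within a tissue it joined same-numbered libraries of the 3 groups, which came from different rats. Those correlated at a median of 0.005, and different-numbered ones of different groups at -0.014, so within a tissue the block is arbitrary.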

Additional observations from a re-analysis of the deposited data

How the results depend on the processing

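Depth limits Il6, and Il1b, Ccl2, Cxcl1 and Lcn2 rest on few reads in most libraries of both tissues. Of 842 values recomputed over 67 results for single genes, 779 kept their direction and their side of the threshold, and 44 changed sign. With the sign kept, 5 passed where they had not and 14 no longer passed. Lcn2 between the tissues in SCI-vehicle, without Detrusor SCI-vehicle replicate 2, both changed sign and no longer passed, and is counted among the 44. Where not stated otherwise, the cause was not tested.

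The number of the 7 genes called for SCI-inosine versus SCI-vehicle in mucosa was 0 in edgeR and 1 in DESeq2. DESeq2 gave no adjusted p for Il1b and Ccl2 there. Between the tissues in SCI-inosine it was 1 in edgeR (42.7% of all genes), 3 in DESeq2 and 2 with filterByExpr. It was 1 to 2 when each library was left out, with 2 without Detrusor SCI-inosine replicate 1. In SCI-vehicle it was 4 (47.1% of all genes), and 1 to 4 when each library was left out. It was 1 without Mucosa SCI-vehicle replicate 1, and 2 without Mucosa SCI-vehicle replicate 2 or Detrusor SCI-vehicle replicate 2. For the tissue comparisons, shares of all genes under the alternatives are not given here. These changes in number were therefore not read as results about the genes. Over all genes, DESeq2 called 335, 349 and 10 in detrusor where edgeR called 12, 46 and 0, in the order of injury, of inosine against Control and of inosine against vehicle, and 81, 17 and 13 in mucosa where edgeR called 0, 0 and 1. With every gene with a count the edgeR numbers were 170, 169 and 2, then 0, 1 and 1. With all 18 libraries they were 45, 130 and 1, then 0, 1 and 1, and with only the 2 groups compared 6, 11 and 0, then 0, 0 and 0. For the interactions of SCI-vehicle and SCI-inosine versus Control, DESeq2 called 183 and 70 where edgeR called 19 and 0.

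With the replicate block the edgeR numbers were 8, 75 and 0 in detrusor and 0, 0 and 0 in mucosa, and of the calls on the 7 genes Lcn2 between the tissues in SCI-vehicle was lost (-1.24, adjusted p = 0.224). Vcam1 in detrusor changed sign with the replicate block, to -0.06 for SCI-inosine versus Control and -0.09 for SCI-inosine versus SCI-vehicle. Within a tissue this block joined libraries of different rats, so it is not a pairing by rat.

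Signs also changed around 0. Vcam1 for SCI-vehicle versus Control in detrusor was -0.01 with DESeq2, its size factors or all 18 libraries and 0.00 with filterByExpr. Icam1 between the tissues was -0.03 with every gene with a count and -0.01 with filterByExpr in SCI-inosine, and 0.00 with every gene with a count in SCI-vehicle. Leaving out single libraries gave log2 ranges that cross 0. In detrusor these were -1.56 to 0.49 for Ptgs2 and -0.17 to 0.31 for Vcam1 (SCI-vehicle versus Control), -0.14 to 0.35 for Lcn2 and -0.47 to 0.33 for Vcam1 (SCI-inosine versus Control), and -0.35 to 0.55 for Il1b, -0.10 to 1.66 for Cxcl1, -1.38 to 0.14 for Ptgs2, -0.47 to 0.33 for Vcam1 and -3.13 to 0.11 for Lcn2 (SCI-inosine versus SCI-vehicle). In mucosa they were -0.90 to 0.35 for Ccl2, -1.43 to 1.09 for Cxcl1 and -0.48 to 0.01 for Ptgs2 (SCI-vehicle versus Control), -0.29 to 0.20 for Icam1 (SCI-inosine versus Control), and -0.31 to 0.09 for Vcam1 and -0.40 to 0.24 for Lcn2 (SCI-inosine versus SCI-vehicle). Between the tissues they were -0.23 to 1.92 for Cxcl1 (Control), -1.26 to 0.76 for Cxcl1, -0.17 to 0.25 for Icam1 and -2.85 to 0.40 for Lcn2 (SCI-vehicle), and -0.14 to 0.32 for Icam1 and -0.13 to 0.51 for Lcn2 (SCI-inosine). The Lcn2 interaction of SCI-inosine versus SCI-vehicle ran from -0.10 to 3.15.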
